A study of Mus musculus with 4 samples.

Results

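The comparison set medullary thymic epithelial cells (mTEC) of mice lacking SCD1 against mTEC of littermate controls, gene by gene. Members were the genes with 50 or more reads summed over the 2 mTEC libraries, which kept 16466 of the 54532 genes in the count table. Each genotype gave 1 mTEC library by bulk RNA sequencing, from thymus of the C57BL/6 strain, sorted as UEA1-positive, Ly51-negative epithelium. One group was labelled SCD1 knockout and the other WT, meaning the littermate controls, and no treatment was named for either. The age and number of the mice, the deleted part of Scd1 and the promoter of any deleter transgene are not stated in the labels. A second pair of libraries, from cortical epithelium (cTEC) of the same 2 genotypes, was used only to set the mTEC differences beside it. The study's title places the work under the question of how oleic acid availability prepares early thymocytes for a regulatory T cell fate.

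SCD1 is an enzyme of the endoplasmic reticulum that puts a double bond into saturated fatty acids, and oleic acid is its main product. mTEC present self antigens to developing T cells. The regulator Aire lets them transcribe genes that are otherwise restricted to single tissues, and a minority of mTEC take on the expression programs of other cell types, such as tuft cells, keratinocytes, muscle or gut, and are called mimetic cells. UEA1 is a plant lectin that binds a fucosylated sugar on medullary epithelium.

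The 2 mTEC libraries were close to each other. The control library held 16467844 reads assigned to genes and the knockout library 17051620, and the genes tested took 99.5% of the reads in each. The log2 ratio of knockout over control, on library sizes scaled by the trimmed mean of M-values (TMM), had a median of 0.0064 over all genes tested, and 95.3% of genes lay within 1.5-fold of each other and 99.1% within 2-fold. There were no replicates, so the 95% intervals given for ratios and levels cover counting error only, no p-value was computed, and the values compare these libraries rather than the genotypes. In bulk samples, fewer cells of a type and less RNA per cell cannot be told apart.

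Genes were called different where the ratio reached 2-fold and its interval excluded 0 on the log2 scale. This called 83 genes higher (0.504% of those tested) and 71 lower (0.431%) in the knockout library, 154 in all (0.935%). A looser count, used below to describe gene lists, took every gene whose interval excluded 0 whatever its size: 1905 genes were higher (11.6%) and 1682 lower (10.2%), 21.8% in all, and 51.9% of all genes tested had a ratio above 0. With 1 library a side and no adjustment for the number of genes, these shares are the background against which each list is read. Both shares change with level, as given below. At 100 CPM or more, 400 genes were higher and 407 lower of 1978 by the interval, so lists of abundant genes have a larger background.

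**Figure D1:**
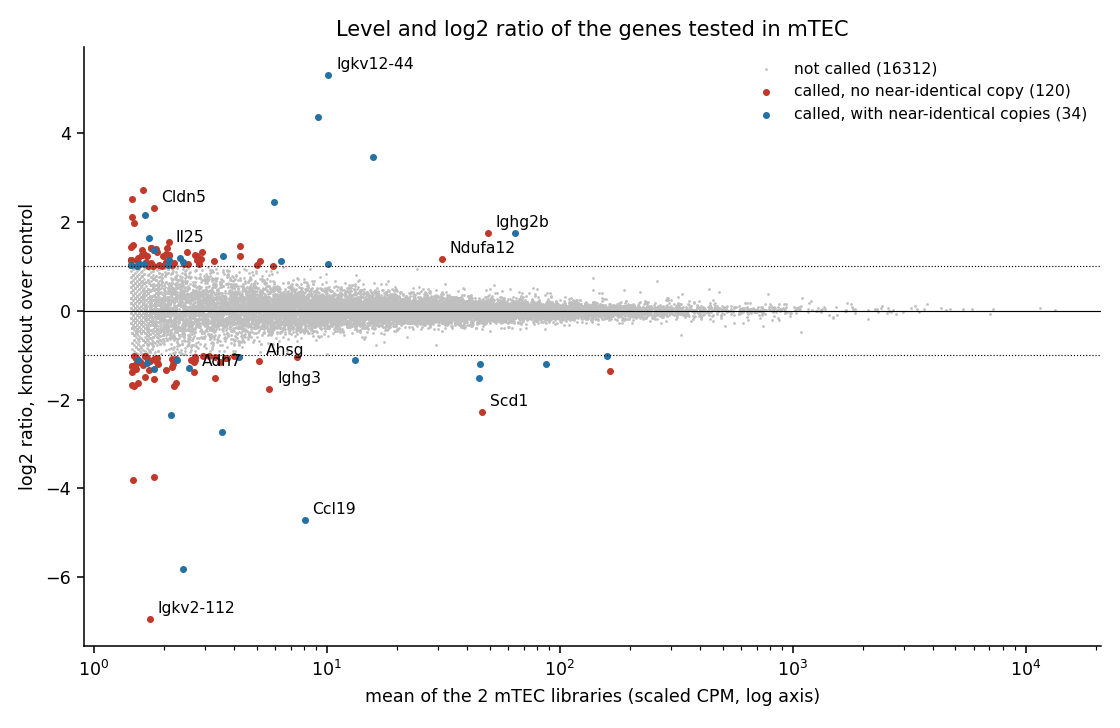
Each point is 1 of the 16466 genes tested in mTEC, with its mean level in CPM (reads normalised to the scaled library size, log axis) against its log2 ratio of knockout over control. Dotted lines mark 2-fold. The 154 called genes are coloured by whether their transcripts share sequence with other genes, and most sit at the low end of the level axis. Igkv2-112 had 0 knockout reads, so its plotted position depends on the prior count of 0.5 reads.

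Large ratios were a feature of genes with few reads. Called genes had a median of 69.5 reads over the pair against 700.5 for all genes tested, and 115 of them (74.7%) had 50 to 99 reads, a range that held 12.6% of the genes tested. Of 3665 genes under 5 CPM on average, 3.57% were called, against 0.101% of the 1978 genes at 100 CPM or more. The looser count went the other way, from 15.2% of genes under 5 CPM to 40.8% at 100 CPM or more, where small differences exceed counting error. At the entry threshold, 36 of the 324 genes with 50 to 54 reads were called, and 34 of the 380 genes with 45 to 49 reads, just outside, met the same fold and interval.

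**Figure D2:**
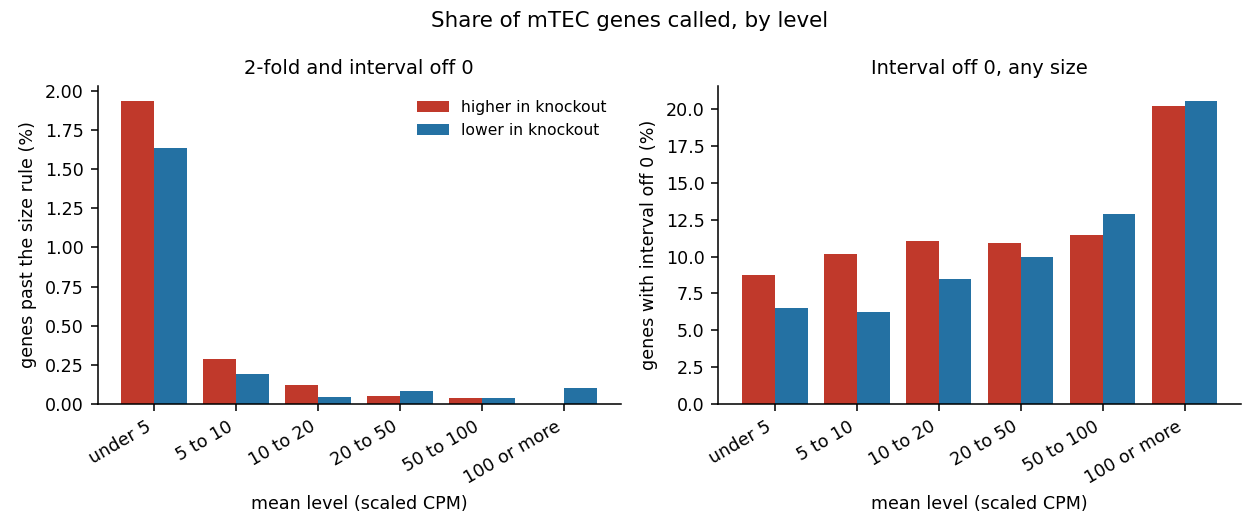
Bars give the percent of genes in each class of mean level (scaled CPM) that were higher or lower in knockout mTEC, by the 2-fold rule on the left and by the interval alone on the right. The left bars are tallest under 5 CPM, with 3.57% of genes in both directions, against 0.101% at 100 CPM or more, and the right bars grow to 40.8% in both directions at 100 CPM or more.

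Scd1, the targeted gene (ENSMUSG00000037071, mm10 chromosome 19, 44394451 to 44407709, minus strand), had 1310 reads in control and 278 in knockout mTEC. The knockout library was 4.85-fold lower, with a log2 ratio of −2.28 (−2.47 to −2.09), which fits its label. Among the 6 called genes with 200 or more reads and no near-identical copy elsewhere in the genome, Scd1 was the one with the interval farthest from 0 on the lower side. The cTEC pair gave −2.34 for the same gene, and the 2 ratios differed by 0.07 (−0.34 to 0.48).

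Scd1 lies in a cluster with its paralogs, and none of the 59 genes tested within 2 Mb of it was called. Over 5 Mb this was 0 of 119, and over 20 Mb 2 higher and 1 lower of 270, which is 1.11% against the background of 0.935%. By the interval alone, 6 of the 59 were higher and 4 lower. Scd3, a desaturase of skin and Harderian gland, had 43 and 81 reads (0.86, 0.32 to 1.44), and Scd2, the desaturase with the most reads here, 6020 and 6647 (0.10, 0.05 to 0.15). Further along, Fbxl15 (150 and 212 reads) and Loxl4, a lysyl oxidase (143 and 202 reads), both stood at 0.45, and Cox15, a heme A synthesis enzyme, at −0.29 (662 and 560 reads). The values to either side of Scd1 thus lay on both sides of 0.

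Among the 86 called protein-coding genes with an ordinary symbol and no near-identical copy, 53 were higher and 33 lower. Ambn, which encodes the enamel matrix protein ameloblastin (chromosome 5, 88455991 to 88468531), had 7 and 44 reads, a log2 ratio of 2.52 with a lower interval bound of 1.45. Sycn, a protein of pancreatic zymogen granules, had 10 and 42 reads (1.97, 1.01 to 3.19). Cldn5, the tight junction protein of endothelium, had 10 and 53 (2.31, 1.37 to 3.50). In each of these 3 genes the control value rests on 10 reads or fewer.

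Further called genes on the higher side had varied roles. Il25, a tuft cell cytokine, had 19 and 53 reads (1.41, 0.66 to 2.27), Il1f10, an interleukin-1 family member, 17 and 46 (1.37), and Fgf17, a fibroblast growth factor, 21 and 45 (1.04). Drd4, a dopamine receptor, had 29 and 67 reads (1.15), Ednrb, an endothelin receptor, 16 and 41 (1.29), and Ddr2, a collagen receptor, 30 and 70 (1.16). Mst1, the liver-made ligand of the receptor Ron, was one of the few with more than 200 reads over the pair (66 and 137, 2.01-fold, with a log2 interval of 0.58 to 1.46). Adh6b, an alcohol dehydrogenase, had 16 and 37 reads (1.14), and Tmprss11a, a squamous epithelial serine protease, 17 and 47 (1.40).

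Ndufa12, a subunit of respiratory complex I, was the most abundant protein-coding gene of this kind on the higher side, with 326 and 758 reads (1.17, 0.98 to 1.37). Of 85 nuclear respiratory chain genes tested, it was the 1 called, and their median was 0.06. In the cTEC pair it had 691 and 433 reads, a ratio of −0.87. Of its 50-base windows, 16.7% occur in another gene, which is under the 25% used here to define near-identical copies. Cox20, a cytochrome c oxidase assembly gene outside the 85, was also called higher (28 and 68 reads, 1.22, 0.58 to 1.93).

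The called lower gene with the most reads was Gm43305, a processed transcript without an assigned role (chromosome 14, 54292443 to 54297456), with 4003 and 1615 reads (−1.35, −1.44 to −1.27). Protein-coding genes lower in knockout mTEC included enzymes, transcription factors and proteins of cilia. Armc2 (58 and 18 reads, −1.70) and Zmynd10 (52 and 22, −1.27) are needed for motile cilia, although the 27 ciliated cell genes tested had a median of −0.05, with 6 higher and 1 lower by the interval. Adh7, an alcohol and retinol dehydrogenase of stomach and other epithelia, had 66 and 26 reads (−1.37, −2.10 to −0.71). Fam20a, a pseudokinase needed for enamel formation, had 171 and 86 (−1.03, −1.43 to −0.65), the opposite direction to Ambn. Havcr2, the T cell inhibitory receptor TIM-3, had 44 and 20 reads (−1.16), and Gabra5, a GABA receptor subunit, 52 and 23 (−1.20).

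Of 1051 transcription factors annotated in the table, 2 were called higher and 7 lower. On the lower side, Tbx4, a limb and lung T-box factor, had 35 and 15 reads (−1.24), Lmx1b, a LIM homeobox factor of limb and kidney, 45 and 20 (−1.19), and Myod1, the myogenic regulator, 34 and 17 (−1.02). The zinc finger genes Zfp286 (39 and 17 reads), Zfp108 (37 and 17) and Zfp873 (84 and 41) were also called. The share called, 0.856%, was close to the background of 0.935%, and by the interval 109 factors were higher and 120 lower.

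Near-identical gene copies held a larger share of the calls than of the genes. By the measure used here, at least 25% of a gene's 50-base transcript windows occur in another gene, and 34 of the 154 called genes (22.1%) met it against 5.79% of the genes tested. Of the 19 called genes with 200 or more reads, 13 had such copies. Ccl19, a CCR7 ligand that draws thymocytes and dendritic cells to the medulla, went with its copies on chromosome 4. The stretch that starts the annotated transcript of the pseudogene Ccl19-ps3 is printed for 3 of these genes because its letters are the same in each (GENCODE M21 transcripts, GRCm38):
Ccl19-ps3, from base 1: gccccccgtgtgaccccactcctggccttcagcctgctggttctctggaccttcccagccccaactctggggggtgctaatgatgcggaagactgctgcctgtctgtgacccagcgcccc
Ccl19, from base 217: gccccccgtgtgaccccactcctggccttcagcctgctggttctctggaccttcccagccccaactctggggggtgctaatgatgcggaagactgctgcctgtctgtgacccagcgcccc
Gm12407, from base 1: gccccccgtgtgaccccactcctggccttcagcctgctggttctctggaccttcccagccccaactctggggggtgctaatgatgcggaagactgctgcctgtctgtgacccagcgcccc

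Over its whole length of 324 bases, the Ccl19-ps3 transcript was identical to part of Ccl19 and of Gm2564, and differed at 2 bases from Gm12407. Ccl19 (42754525 to 42756577, minus strand) had 264 control and 10 knockout reads, Gm2564 81 and 1, Ccl19-ps1 17 and 1, Gm12407 513 and 492, and Ccl19-ps3 (42132559 to 42134171, plus strand) 44 and 507. As single gene models, Ccl19 was 26.0-fold lower and Ccl19-ps3 11.1-fold higher. The 5 genes together had 919 and 1011 reads, a log2 ratio of 0.09 (−0.04 to 0.22). Reads from the shared stretch cannot be assigned to 1 gene by sequence, and the labels do not say how reads with several places were counted.

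In further families, single genes also differed more than the family sum. Sumo2, whose product is attached to other proteins as a small modifier, had 498 and 1733 reads, its processed pseudogene Gm10241 had 1084 and 483, while the family of 11 had 1609 and 2250 (0.44, 0.35 to 0.53). Rpl17-ps10, a ribosomal protein pseudogene, had 3662 and 1850 reads, and its family of 13 had 10411 and 10784 (0.0068, −0.03 to 0.05). Gm29216 had 1132 and 406 reads, against 225608 and 236980 for its copy mt-Co1, the mitochondrial oxidase gene. Gm13304, a further chromosome 4 gene with copies of its own, had 2058 and 928 reads, and its family was lower as a whole (3386 and 2165 reads, −0.69, −0.77 to −0.61).

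Immunoglobulin segments had some of the largest ratios. Only 26 of the 395 segments matched had 50 or more reads. Of these, 13 (50%) were called, 6 higher and 7 lower, against 0.935% of all genes tested. Among all genes tested under 5 CPM, the share called was 3.57%. Igkv12-44, a kappa variable segment, had 8 control and 348 knockout reads (5.31, 4.40 to 6.62), and Ighv1-53, a heavy variable segment, 14 and 308 (4.37, 3.65 to 5.30). In the other direction Igkv2-112 had 59 and 0 reads, at least 20.3-fold lower when the knockout value is set at a floor of 3 reads, Iglv2 58 and 4, and Igkv6-32 47 and 3. The 15 variable segments tested thus split into 4 higher and 5 lower. Igkv12-44 alone took 18.0% of the knockout library's variable segment reads, whereas the leading control segment took 5.50%.

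Constant regions differed by class in the same pair. Ighg2b, the constant region of IgG2b, had 380 and 1328 reads (1.76, 1.60 to 1.93) and Ighg1 38 and 109 (1.46), while Ighg3 had 149 and 45 (−1.76) and the lambda gene Iglc2 84 and 30 (−1.51). Ighm, of IgM, had 1508 and 1393 reads (−0.16), Igha, of IgA, 493 and 381 (−0.42), and Igkc, of the kappa chain, 1070 and 1581 (0.52). Genes of B cells in general did not differ in this way: of 11 tested, 0 were called by either rule on the higher side, their median was −0.04 and their sum was 180 and 181 CPM. Jchain, the joining chain of secreted antibody, was the single B cell gene off 0 (342 and 280 reads, −0.33).

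**Figure D3:**
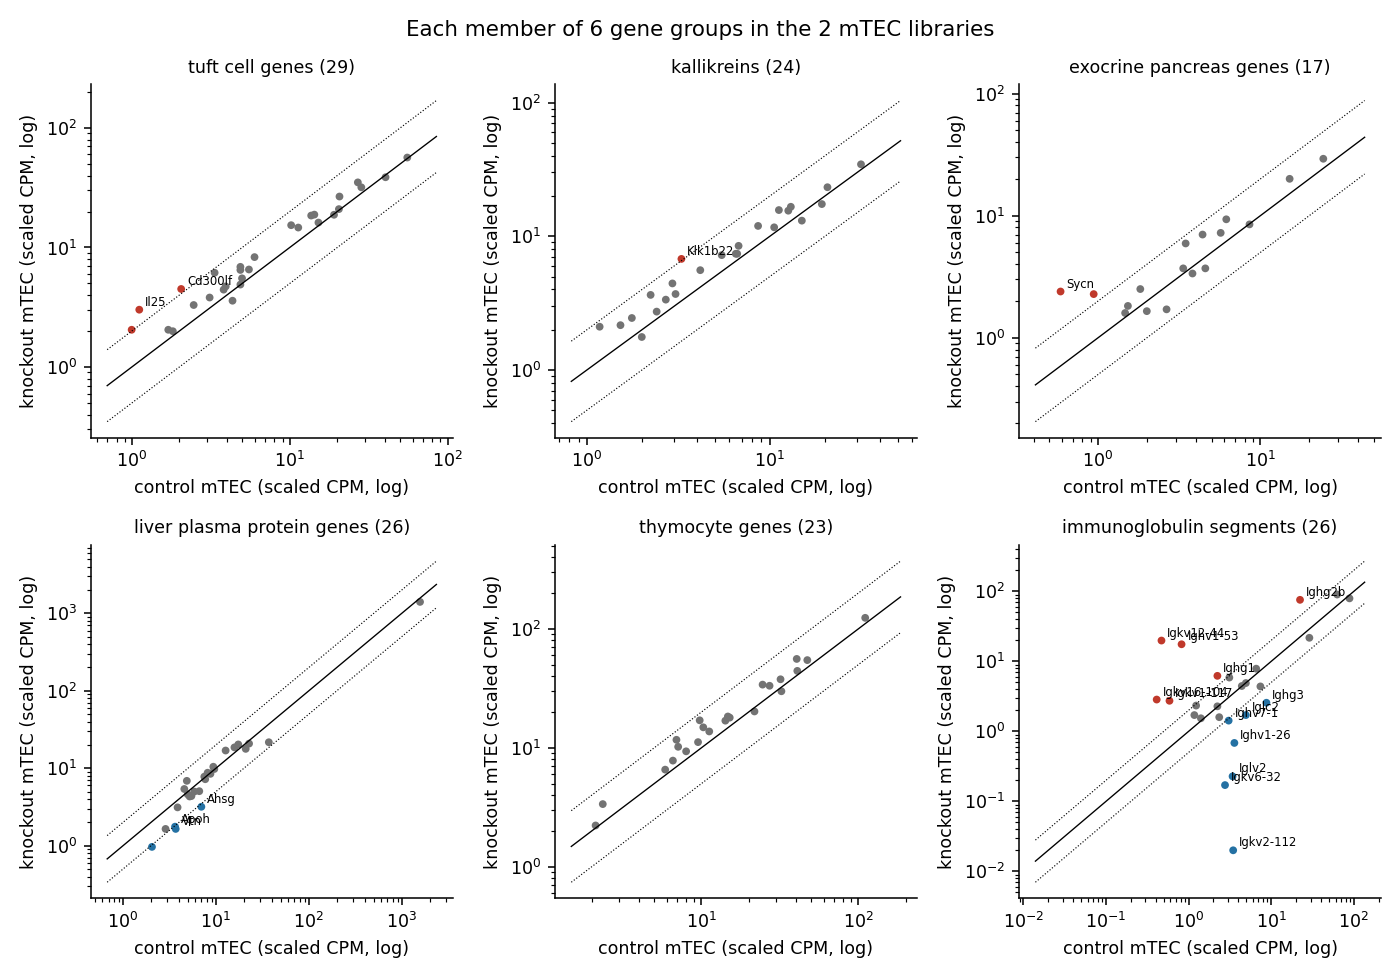
Each point is 1 gene with 50 or more reads, with its level in control (horizontal) and knockout (vertical) mTEC in scaled CPM on log axes. The solid line marks equality and dotted lines 2-fold. Called genes are red (higher) or blue (lower), some with their symbol, and Igkv2-112, with 0 knockout reads, is drawn at the lower edge. Tuft cell, kallikrein, pancreas and thymocyte genes lie mostly above equality, and immunoglobulin segments scatter on both sides.

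The medullary program itself differed little. Aire had 21598 and 22186 reads (−0.01, −0.03 to 0.02) and Fezf2, the other regulator of tissue-restricted antigens, 6638 and 7336 (0.10, 0.05 to 0.15). Of 14 genes of Aire-stage mTEC, 7 were higher and 0 lower by the interval, with a median of 0.06, among them the chemokine genes Ccl22 (0.32) and Ccl25 (4944 and 6627 reads, 0.38) and the class II gene H2-Aa (0.14). The 13 gene models of immature, keratin 5 and 14 bearing mTEC went mostly the other way, with 2 higher and 9 lower and a median of −0.07. Itgb4, the hemidesmosome integrin, had 6790 and 6168 reads (−0.18), Krt14 26580 and 24722 (−0.15) and Krt17 39862 and 43123 (0.07). The largest of these differences was under 1.5-fold.

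Cortical genes were higher in the knockout mTEC library. Of 15 tested, 9 were higher and 1 lower by the interval, 0 were called at 2-fold, and the median was 0.16. Ctsl, the protease that makes class II peptides in the cortex, had 27346 and 31858 reads (0.18), Tbata 7086 and 9706 (0.41), and Il7, the thymocyte survival cytokine, 2851 and 2752 (−0.09). Of 8 genes behind the sort and gate, 4 were higher and 0 lower by the interval, with a median of 0.10. Among them Ptprc, the leukocyte antigen CD45, had 346 and 433 reads (0.28), while Epcam, the epithelial adhesion molecule, stood at −0.03, Enpep, which encodes the Ly51 antigen, at 0.08, and the fucosyltransferases Fut1 and Fut2 at −0.12 and 0.08. Trp63, the basal epithelial regulator, stood at −0.20 (4671 and 4205 reads), Tbx1 at −0.50 (106 and 77) and Pax1 at 0.20 (2901 and 3439). These lists share members, so their counts are not separate observations. Ccl25 is on both the Aire-stage and the cortical list, and H2-Aa on both the Aire-stage and the sort and gate list. Ly75 and Enpep are on both the cortical and the sort and gate list.

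Mimetic programs were uneven, with tuft cells highest. Tuft cells are chemosensory cells that use taste receptor signalling. Of 29 tuft genes tested, 26 had a ratio above 0, 12 were higher and 0 lower by the interval, with a median of 0.29. Of the 29, 3 were called (10.3%), against 0.935% of all genes tested. These 3 lie under 5 CPM, where 3.57% of the genes tested were called. Besides Il25, the called genes were Cd300lf, an inhibitory lipid receptor (35 and 79 reads, 1.12), and Tas1r1, a taste receptor (17 and 36, 1.02). Signalling genes followed, with Gnat3, the taste G protein, at 0.50 (83 and 121 reads), Trpm5, the taste channel, at 0.37 (352 and 469) and Avil, an actin regulator, at 0.38 (460 and 616). Vav1, an exchange factor that blood cells also use, stood at 0.59 (174 and 270). Pou2f3, the regulator of tuft identity, had 325 and 330 reads (−0.02, −0.25 to 0.20), and Dclk1 946 and 994 (0.03).

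Kallikreins and pancreatic enzymes were also mostly higher. Of 24 kallikreins, secreted serine proteases encoded together on chromosome 7, 21 were above 0, 9 were higher and 0 lower by the interval, and Klk1b22 was called (56 and 119 reads, 1.04, 0.57 to 1.53). Klk5, a skin protease, had 191 and 276 reads (0.49), Klk1b11 147 and 210 (0.47) and Klk1, tissue kallikrein, 537 and 607 (0.13). The Klk1b genes resemble one another in sequence, so their reads may not be independent. Of 17 exocrine pancreas genes tested, 12 were above 0, 7 were higher and 0 lower by the interval, with a median of 0.26. Prss2, a trypsinogen, had 105 and 164 reads (0.60), Prss1 59 and 104 (0.77), and Spink1, the trypsin inhibitor, 258 and 352 (0.40). A further 14 pancreas genes had under 50 reads and were not tested, among them Prss3, which went the other way (21 and 4 reads).

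Liver plasma protein genes were the mimetic list with the lowest median, −0.15 over 26 genes, with 8 lower and 2 higher by the interval. Of the 26, 4 were called lower (15.4%), against 0.935% of all genes tested called in either direction. Ahsg, which encodes fetuin-A, had 119 and 56 reads (−1.12, −1.62 to −0.66), Vtn, vitronectin, 63 and 29 (−1.15), Apoh 62 and 31 (−1.03) and Plg, plasminogen, 35 and 17 (−1.06). Vtn, Apoh and Plg lie under 5 CPM, where 3.57% of the genes tested were called. Alb, serum albumin, had 633 and 381 reads (−0.78, −0.96 to −0.59). The list was not uniform: Hp, haptoglobin, stood at 0.41 (217 and 298 reads), Fga, a fibrinogen chain, at 0.50 (83 and 121) and Fgg at 0.22 (297 and 357). Over the 15 members with 200 or more reads the median was 0.02. Of the 15 with 50 or more reads in the cTEC pair, 12 were below 0 there, counted whatever their sign in mTEC, with a median of −0.87.

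Other mimetic and antigen lists gave mixed values. Keratinocyte genes had 10 higher and 2 lower of 29 by the interval (median 0.11), with Serpinb2 at 0.39 and Tgm1, a cornified envelope enzyme, at −0.28. Enterocyte and hepatocyte genes had 8 higher and 2 lower of 26 (median 0.17), Reg3g, a gut antimicrobial lectin, at 0.24 (4542 and 5513 reads) and Hnf4a, their nuclear receptor, at −0.65 (84 and 55). Airway genes had 9 higher and 2 lower of 24, with Bpifa1 at 0.47 (1987 and 2834 reads) and Wfdc2 at 0.50 (1122 and 1633). Neuroendocrine genes had 7 higher and 1 lower of 28 by the interval (median 0.08), and endocrine gland genes 1 higher and 1 lower of 15 (median 0.10). The member of each list that was lower by the interval was abundant: Chga, chromogranin A, had 21563 and 15914 reads (−0.48) and Pth, parathyroid hormone, 14208 and 11557 (−0.34). Sst, somatostatin, had 328 and 485 reads (0.52). Skeletal muscle genes were level, with a median of 0.0030 over 25 that turned negative on unscaled library totals. Of the 25, 1 was called (4%), against 0.935% of all genes tested and 3.57% of those under 5 CPM. It was the regulator Myod1, which lies under 5 CPM and was lower (34 and 17 reads, −1.02). The sarcomere genes Myoz1 (15 and 35 reads) and Nrap (18 and 40), which are not on the list, were called higher and Casq1, a calcium store protein (36 and 17), lower.

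**Figure D4:**
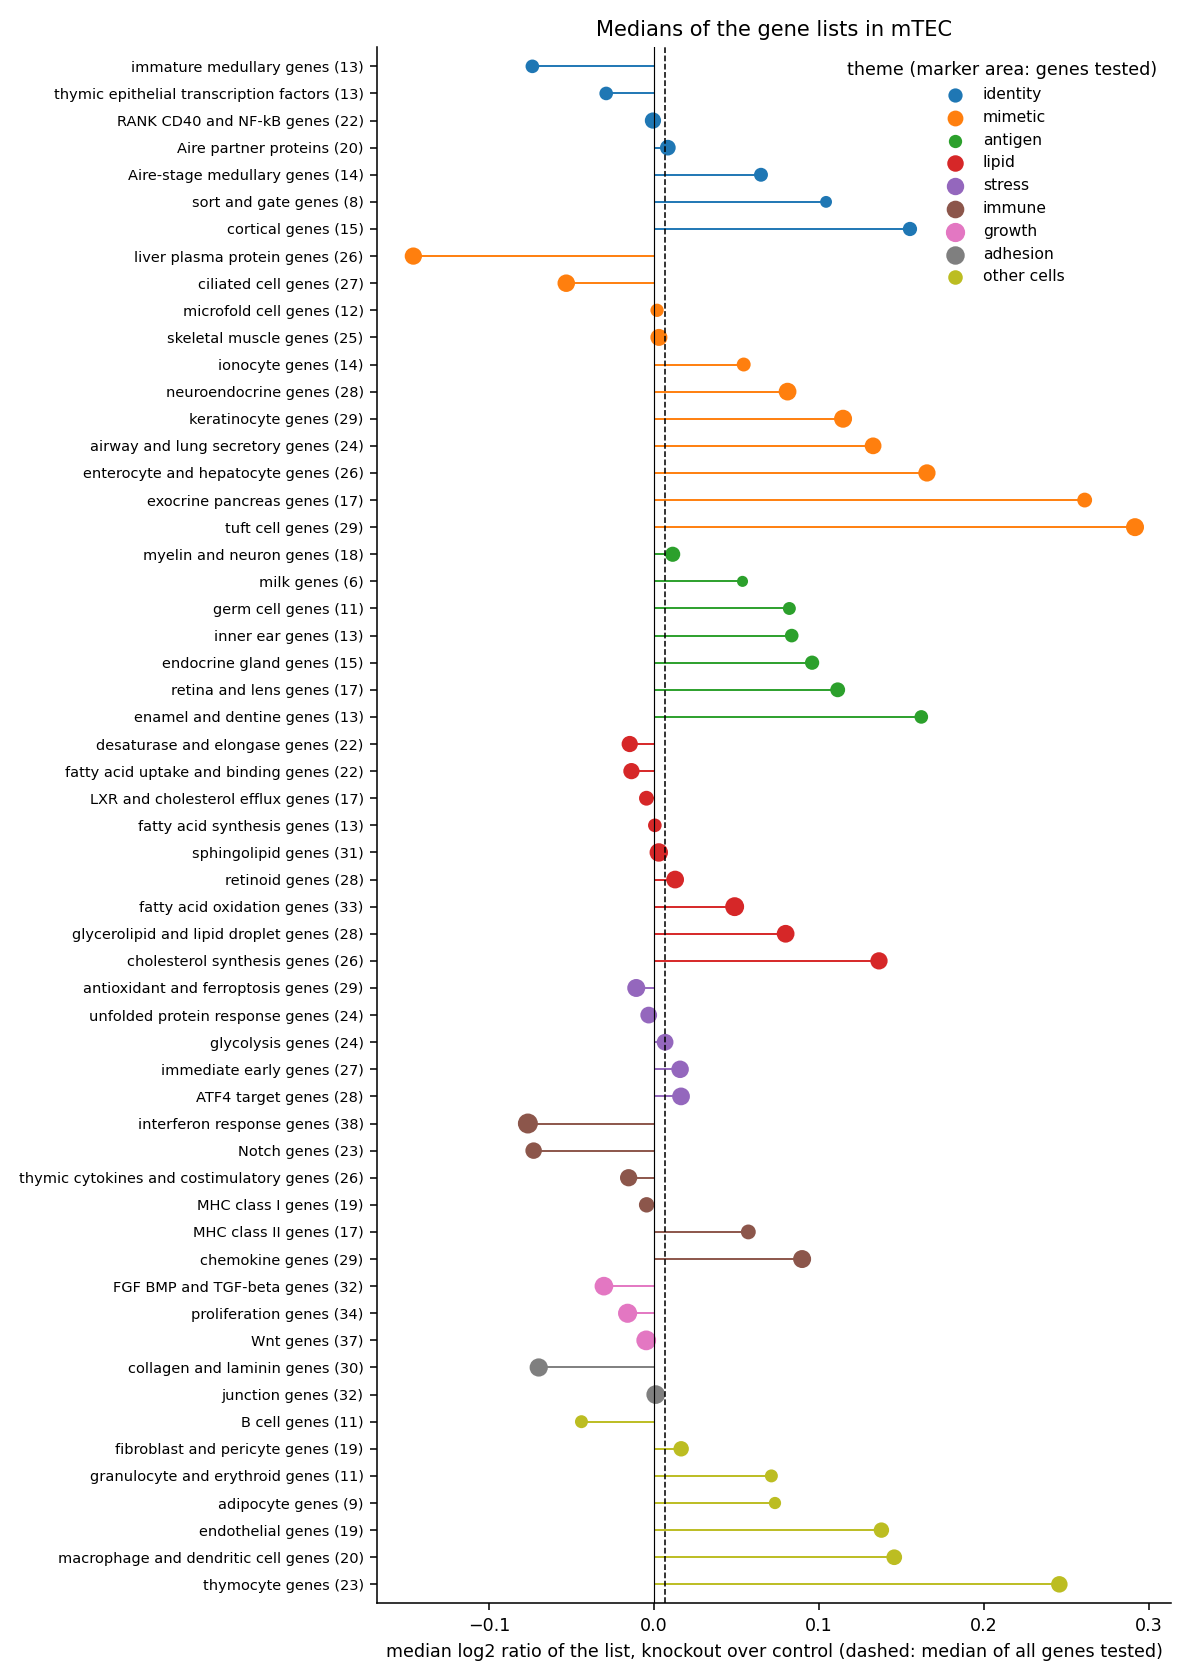
Each point is the median log2 ratio of knockout over control for 1 gene list in mTEC, with the number of genes tested in parentheses and the marker area growing with it. The dashed line is the median of all genes tested, 0.0064. Tuft cell, pancreas and thymocyte lists lie farthest to the right and the liver plasma protein list farthest to the left.

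Across the 57 lists, 38 had a median above 0, 13 had one above 0.1 and 1 had one below −0.1, and 47 had no called member. Changing the library scaling alone turned the sign of 11 of 81 medians (lists and gene families together), each of them within 0.01 of 0.

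Few genes of the lipid lists were called. Of 22 desaturase and elongase genes, Scd1 was the 1 called (4.55%), and of 28 retinoid genes 1 was called, lower (3.57%). The share over all genes tested was 0.935%. Outside the lipid lists, the lipase family gene Lipk was called higher (19 and 42 reads, 1.08). Scd3, given above, was higher by the interval, and Elovl5, an elongase of polyunsaturated fatty acids, stood at 0.19. Elovl6, which elongates palmitate to stearate, the substrate of SCD1, had 447 and 416 reads (−0.15, −0.34 to 0.05). Of 26 cholesterol synthesis genes, 21 were above 0 and 9 were higher by the interval, against 0 lower, with a median of 0.14. Insig1, the sterol-sensing retention protein, had 402 and 560 reads (0.43) and Hmgcs1, the enzyme that makes HMG-CoA, 1183 and 1535 (0.33). Among triglyceride genes, Abhd5, the activator of droplet lipase, stood at 0.47 (278 and 398 reads), Dgat2 at 0.24 and Dgat1 at −0.23, and these are the enzymes of the last step of triglyceride synthesis. Fabp4, a fatty acid carrier of adipose tissue and macrophages, stood at 0.40 (2230 and 3025 reads).

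Promoters of the cholesterol genes often held the letters CCAAT, a binding site of the factor NF-Y, which acts with the sterol regulator SREBP2. It occurred on either strand within 250 bases upstream in 16 of 19 of these promoters (84.2%) against 33.8% of all 32851 RefSeq promoters. The 16 genes with it had a median ratio of 0.14, with 13 above 0, and the 3 without it a median of 0.22, with 2 above 0. The upstream bases of the 2 genes with the highest ratios are given to show the match (RefSeq, GRCm38.p6, CCAAT or its reverse complement in capitals):
Insig1, chr5:28071162-28071411, plus strand: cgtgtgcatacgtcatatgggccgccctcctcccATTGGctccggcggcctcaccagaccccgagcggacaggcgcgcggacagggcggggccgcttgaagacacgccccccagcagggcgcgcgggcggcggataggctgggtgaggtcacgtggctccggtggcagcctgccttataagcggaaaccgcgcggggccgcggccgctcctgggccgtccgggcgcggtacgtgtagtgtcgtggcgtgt
Hmgcs1, chr13:119690101-119690350, plus strand: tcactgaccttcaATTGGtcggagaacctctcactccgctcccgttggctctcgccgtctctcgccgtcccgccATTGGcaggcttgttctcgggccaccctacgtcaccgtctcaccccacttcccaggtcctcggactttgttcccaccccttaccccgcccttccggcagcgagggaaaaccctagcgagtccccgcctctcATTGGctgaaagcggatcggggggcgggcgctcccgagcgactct
The window of Insig1 held 1 match and that of Hmgcs1 3.

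Interferon response genes were lower as a group by a small amount. Of 38 tested, 32 were below 0, 18 were lower and 1 higher by the interval, 0 were called at 2-fold, and the median was −0.08. Mx1, a GTPase against influenza virus, had 1079 and 846 reads (−0.39, −0.53 to −0.26), Oas3, a sensor of double-stranded RNA, 840 and 663 (−0.39, −0.53 to −0.24), Rtp4 1623 and 1389 (−0.27) and Gbp3, a guanylate-binding protein, 2094 and 1932 (−0.16). The signal transducers Stat2 and Irf9 both stood at −0.15, Isg15 had 2703 and 2786 reads, with its interval reaching from −0.08 to 0.08, and Irf1 stood at 0.05.

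A pair of TTTC half-sites spaced by any 2 bases is the core of the element that interferon-activated factors bind. It was found on either strand in 16 of 28 interferon gene promoters (57.1%) against 2.98% of all promoters. Genes with and without it differed little in ratio: the medians were −0.07 (2 of 16 above 0) and −0.06 (3 of 12 above 0). Oas3 has 1 match and Gbp3 2 overlapping ones, in capitals here (RefSeq, GRCm38.p6):
Oas3, chr5:120777660-120777909, minus strand: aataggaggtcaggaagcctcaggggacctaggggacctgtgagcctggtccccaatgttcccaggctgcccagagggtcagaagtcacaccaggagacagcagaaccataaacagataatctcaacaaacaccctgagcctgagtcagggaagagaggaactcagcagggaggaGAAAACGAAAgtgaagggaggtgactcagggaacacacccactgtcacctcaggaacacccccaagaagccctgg
Gbp3, chr3:142559794-142560043, plus strand: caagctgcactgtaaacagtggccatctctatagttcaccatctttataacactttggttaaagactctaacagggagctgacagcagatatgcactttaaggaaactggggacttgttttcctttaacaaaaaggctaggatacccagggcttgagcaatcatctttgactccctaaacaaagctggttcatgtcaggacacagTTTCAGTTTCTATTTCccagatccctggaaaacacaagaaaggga

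Of 17 class II genes, 9 were higher and 0 lower by the interval (median 0.06), with H2-Ob at 0.22 and Cd74, the invariant chain, at 0.05 (193519 and 207160 reads). Class I genes had 5 higher and 4 lower of 19, with Tap2, the peptide transporter, at −0.13 and B2m at 0.05, and their median of −0.0045 turned positive with DESeq2 size factors. Proteasome genes had 15 higher and 0 lower of 48 (median 0.04), led by Psmb11, the thymoproteasome subunit of cortical cells (706 and 1026 reads, 0.50). Chemokine genes had 9 higher and 5 lower of 29, with Cxcl12 at 0.14 and Cx3cl1 at −0.17.

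Of 30 collagen and laminin genes, 23 were below 0, 9 were lower and 1 higher by the interval, and the median was −0.07. Col4a1, of basement membrane collagen, had 10419 and 8929 reads (−0.27), Col6a1 14785 and 13283 (−0.20) and Col17a1, of hemidesmosomes, 1140 and 1289 (0.13). Of 23 Notch pathway genes, 7 were lower and 2 higher, with Notch3 at −0.27 (1252 and 1072 reads), the ligand Jag1 at −0.16, the target Hes1 at −0.19 and its relative Heyl at 0.24. FGF, BMP and TGF-beta genes had 8 lower and 1 higher of 32, with Fst, the activin antagonist follistatin, at −0.39 (1384 and 1092). Wnt genes had 5 higher and 6 lower of 37, with a median of −0.0047 that turned positive with DESeq2 size factors. No member of these 4 lists was called at 2-fold. Ligand genes that are not on them were called in both directions. Wnt2 was lower, and Fgf17 (21 and 45 reads, 1.04) and Gdf9 (15 and 35 reads, 1.15) were higher.

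Markers of other cell types were measured beside these lists. Of 23 thymocyte genes tested, 21 were above 0 and 14 higher by the interval, with a median of 0.25 and a summed level of 502 CPM in control and 596 in knockout mTEC. No marker of the list was at 0 reads. Cd28, a T cell costimulatory receptor, had 166 and 299 reads (0.80), Cd8a 690 and 982 (0.46) and Tcf7 1886 and 2177 (0.16), and the T cell receptor constant genes Trac (178 and 294, 0.68) and Trbc2 (716 and 1099, 0.57) went with them. Macrophage and dendritic cell genes summed to 629 and 681 CPM (6 higher, 0 lower of 20) and endothelial genes to 118 and 133 CPM (5 higher, 2 lower of 19). Within the endothelial list Cldn5 and Mmrn2 (24 and 51 reads, 1.03) were called, 10.5% of the 19, against 0.935% of all genes tested. Both lie under 5 CPM, where 3.57% of the genes tested were called. Vwf stood at 0.09 (404 and 443 reads) and Lyve1 at −0.88 (45 and 25). Fibroblast genes had a median of 0.02 and adipocyte genes of 0.07. The thymocyte, macrophage and dendritic cell, and endothelial sums were higher in the same library as the cortical and tuft cell genes. The fibroblast sum was level, at 1381 and 1373 CPM. The part of these other cell types in the cortical and tuft cell values was not tested.

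Of 81 ribosomal protein genes, 39 were higher and 7 lower by the interval (median 0.05), and of 85 nuclear respiratory chain genes 18 were higher and 2 lower. Proliferation genes had 2 higher and 4 lower of 34, with Mki67 at 0.16 and Ccnb2 at −0.33. Immediate early genes, which respond to cell handling, had 10 higher and 7 lower of 27 and a median of 0.02, with Fos at −0.03 (59952 and 60408 reads).

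Of the 1759 genes under 1 CPM in both cTEC libraries, 62 were called (3.52%), 36 higher and 26 lower, against 0.626% of the 14707 others. These genes are also less abundant in mTEC, and between 2 and 5 CPM the shares called were close. Without near-identical copies, 56 such genes were called, and those under 2 CPM were not compared at matched levels. Between 2 and 5 CPM in mTEC and without near-identical copies, 14 of 813 such genes (1.72%) and 29 of 1554 others (1.87%) were called. By the interval 100 of the 813 were higher and 46 lower, against 119 and 110 of the 1554. Between 5 and 10 CPM, 2 of 262 such genes (0.763%) and 4 of 1674 others (0.239%) were called. By the interval 38 of the 262 were higher and 9 lower, against 155 and 105 of the 1674. Between 10 and 20 CPM the counts were 13 higher and 6 lower of 90, against 240 and 184 of 2224.

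In the cTEC pair, 65 of the 154 called genes had 50 or more reads, and 38 of these (58.5%) had the same sign as in mTEC. By the same rule the cTEC pair called 71 of its 14445 genes higher (0.492%) and 102 lower (0.706%), 1.2% in all. There, 8 of the mTEC genes were called in the same direction and 6 in the opposite one. The first set held Scd1, Ahsg, the signalling ligand gene Wnt2 (35 and 17 reads in mTEC, 37 and 19 in cTEC), the endothelial gene Mmrn2 and 4 genes with near-identical copies. Without genes with such copies, 24 of 43 had the same sign, with 4 called in the same direction and 2 in the opposite one.

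**Figure D5:**
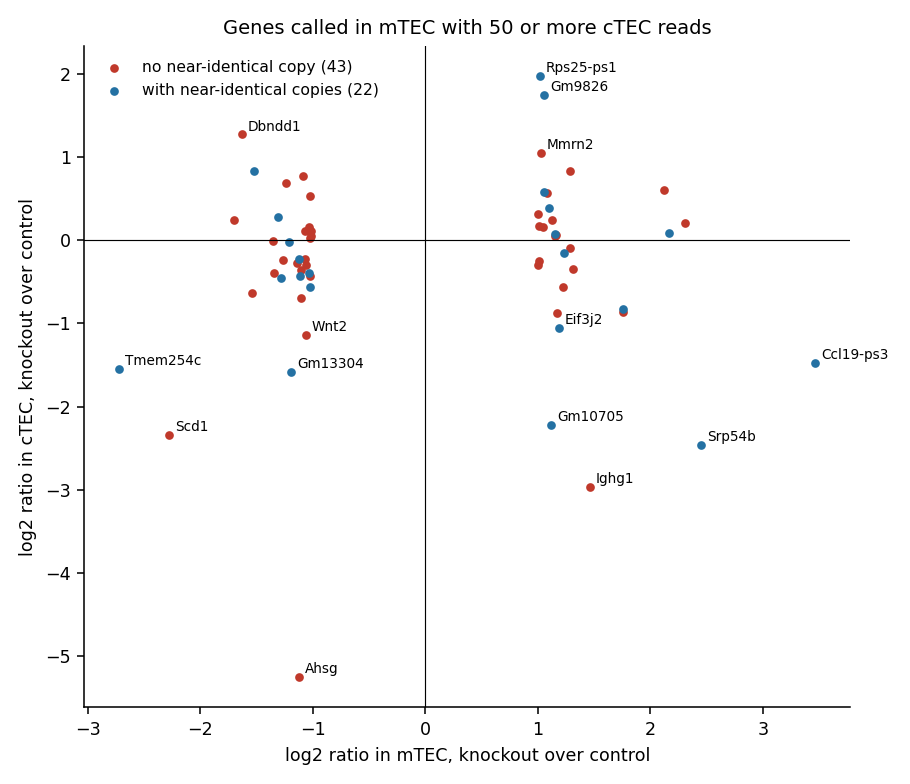
Each point is 1 of the 65 genes called in mTEC that had 50 or more reads in the cTEC pair, with its log2 ratio of knockout over control in mTEC (horizontal) and in cTEC (vertical). The horizontal axis is empty between −1 and 1 because genes were chosen by their mTEC ratio. Genes called in both pairs are named, and Scd1 is lower in both, at −2.28 and −2.34.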

How the data were processed

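RNA of sorted mTEC and cTEC was sequenced, 1 library per genotype. The authors deposited read counts per gene, with mm10 as the genome build; the submitters' processing notes name CASAVA, HISAT2 (2.0.5) along with featureCounts (1.5.0-p3). For the annotation release, the strand setting and reads with several places, nothing is given in the sources used here. The deposited table also gives each gene's length in bases, used only to rank levels per kb.

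Library sizes were scaled by TMM in edgeR 4.0.16 (R 4.3.3) over all 4 libraries. Log2 ratios took a prior count of 0.5 reads, with exact conditional binomial (Clopper-Pearson) 95% intervals, and CPM an exact Poisson interval, in Python 3.11.15 with scipy 1.17.1, numpy 2.4.6 and pandas 2.3.3. Since PCR copies of a molecule are counted too, these intervals hold counting error alone. A floor of 3 reads is 0.176 CPM in control and 0.171 in knockout mTEC. A gene was called with 50 or more reads over the pair, at least 2-fold and an interval excluding 0. No p-value was computed. The code for calls and intervals was run on simulated Poisson counts. These hold counting error alone, so they cannot show the spread between libraries. Near-identical copies were sought in 50-base windows, every 25 bases, of the longest GENCODE M21 transcripts, which held 54409 of the 54532 genes, 53499 at the same coordinates.

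Members and the 57 lists and 24 families were chosen with earlier results of these data known, so their direction is no independent support. Of 1317 list symbols, 3 were not matched. The rule for named genes took Scd1, the 25 higher and 25 lower protein-coding called genes with the farthest interval bound (without copies, predicted models and antigen receptor segments), called genes with 200 or more reads, list members called and up to 4 with the farthest bounds, genes called in both pairs, genes within 2 Mb of Scd1 and the most abundant genes. Further list members (regulators, most read genes and genes that went against their list) were chosen after their values were seen. The same holds for Fgf17, Gdf9, Ednrb, Adh6b, Lipk, Myoz1, Nrap, Casq1 and the copies of Ccl19. Alternatives were library totals, DESeq2 1.42.0 size factors, TMM on the mTEC pair alone, other minimum reads, prior, fold and confidence, and subsets of genes.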

Additional observations from a re-analysis of the deposited data

Results flagged for a closer look

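In 6 genes the knockout and control libraries differed in opposite directions in mTEC and cTEC, each past 2-fold with an interval excluding 0. With 1 library a group the difference between the populations was not tested. It is given as the mTEC minus the cTEC log2 ratio, with the reads of control and knockout in each pair. Ccl19-ps3, the chemokine pseudogene, had a difference of 4.95 (44 and 507 reads in mTEC, 200 and 82 in cTEC). The corresponding value was 4.91 for Srp54b, which encodes part of the signal recognition particle (31 and 177, then 141 and 29). Ighg1, the IgG1 constant region, had 4.44 (38 and 109, then 44 and 6). Gm10705, a processed pseudogene, had 3.34 (68 and 153, then 140 and 34), and Eif3j2, a translation initiation factor gene, 2.24 (24 and 57, then 51 and 28). Dbndd1, a dysbindin domain gene, had −2.91 (40 and 13, then 13 and 37). Of these, Ccl19-ps3, Srp54b, Gm10705 and Eif3j2 have near-identical copies.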

How the results depend on the processing

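No paired analysis was possible because each group has 1 library, and for the same reason no replicate could be left out. The mTEC counts of higher and lower genes stayed within 1.5 times the reported 83 and 71 under the other scalings, the prior of 2 reads and the removal of genes with near-identical copies. They became 351 and 243 at 1.5-fold, 45 and 42 with wider intervals that allow an error of 0.1%, 519 and 473 with a minimum of 1 read and 10 and 9 with a minimum of 200 reads. Protein-coding genes alone gave 43 lower. In the order 1.5-fold, wider intervals, 1 read and 200 reads, the genes of the same sign in cTEC numbered 173, 23, 60 and 8, those called within 20 Mb of Scd1 9, 1, 10 and 0, and those under 1 CPM in cTEC 221, 26, 766 and 2. The genes of the same sign in cTEC numbered 22 among protein-coding genes and 24 without near-identical copies, also 24 when immunoglobulin segments were left out with them, an alternative chosen after seeing the data. In each of these settings the change follows from more or fewer genes passing the rule.

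Scd1 ranged from −2.28 to −2.27, and all 10268 ratios compared for 2567 other genes (members of lists and families, called genes and neighbours of Scd1) stayed inside their intervals. Of 81 medians, 60 were above 0, and between 54 and 65 under the alternatives. Without replicates, differences under 2-fold in abundant genes exceed counting error but have no measure of the spread between mice or sorts, and ratios of genes with under 100 reads have wide intervals.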
